A study of Mus musculus with 9 samples.

Results

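The nuclear genes of oxidative phosphorylation were followed through lung of an ovalbumin (OVA) asthma model on 9 Affymetrix mouse arrays. A gene was a member when the array's probe table gave its probe set that single symbol and the symbol began with Nduf, Uqcr, Sdha to Sdhd, Cox4 to Cox8 or Atp5. The rule found 100 probe sets of 73 genes, out of 12422 probe sets that are not controls and 8251 genes with a symbol of their own. They comprise 31 genes of complex I (42 probe sets), 6 of complex II (6), 7 of complex III (7), 15 of complex IV (23) and 14 of complex V (22). Members were chosen by symbol, with no intensity in the rule, but the family was put forward with earlier results of these same arrays known, among them the changes between the 3 groups. The joint change of the family is therefore given as a description, with no test.

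Oxidative phosphorylation is carried out in the inner mitochondrial membrane. Complex I (NADH dehydrogenase) and complex II (succinate dehydrogenase) pass electrons to ubiquinone, complex III (the cytochrome bc1 complex) passes them on to cytochrome c, and complex IV (cytochrome c oxidase) hands them to oxygen. Complexes I, III and IV pump protons as they do so, and complex V (ATP synthase) lets the protons back through its membrane part to drive ATP synthesis in its F1 head. The catalytic cores of complexes I, III and IV are partly encoded in mitochondrial DNA, which the rule does not cover, and all members are encoded in the nucleus. In lung, mitochondria are found in type II epithelial cells, ciliated cells, smooth muscle and macrophages, and a strip of heart muscle can sleeve the large pulmonary veins of mice.

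The 9 arrays hold total lung RNA of C57BL6 mice in 3 groups of 3. OVA + agonist mice received OVA challenge plus an agonist of EP3, one of the receptors of prostaglandin E2. OVA mice were challenged with OVA alone, and the saline mice, labelled as part of the same model, were challenged with saline. Titles of OVA + agonist and OVA samples give 24 h, and saline titles give no time. Unstated in the sources used here are the agonist's dose and timing, the mice's age and sex, and the number of animals behind each array. All p-values thus rest on the spread between these samples only, which may be technical.

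Intensities are on a linear scale after each array was multiplied by a factor of 0.741 to 1.29, so that all share 1 trimmed mean. A probe set was tested where at least 3 arrays exceeded 44.7, the detection limit used here, and 7920 of the 12422 passed. The ratio of the 3' to the 5' probe sets of beta-actin, a sign of RNA integrity, was 1.48 to 1.51 in OVA + agonist lung, 1.34 to 1.42 in OVA lung and 1.34 to 1.45 in saline lung. The lowest correlation of an array with its own group was 0.879 to 0.880 for OVA + agonist arrays, 0.917 to 0.921 for OVA arrays and 0.907 to 0.914 for saline arrays, and the highest with another group was 0.900 to 0.923, 0.870 to 0.904 and 0.904 to 0.923 in the same order. The OVA + agonist arrays and saline replicates 1 and 2 thus correlated more closely with some array of another group than with one of their own. All group comparisons are limma fits with Benjamini-Hochberg adjustment over the 7920 probe sets at a threshold of 0.05.

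Of the 100 member probe sets, 78 were tested, covering 68 genes, and 70 of them exceeded the detection limit on all 9 arrays. The other 22 lay at or below the limit on all 9 arrays, and 12 of those were below 0 on some array. The 5 genes left with no tested probe set were Ndufs4 and Ndufa12 of complex I and Cox6b1, Cox7a1 and Cox8a of complex IV.

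OVA challenge was set against saline to ask how the transcripts of the allergic lung differ. Each of the 5 complexes had at least 1 subunit called higher in OVA lung, by modest amounts. Of the 78 tested probe sets, 14, each of a different gene, rose and 0 fell at an adjusted limma p under 0.05, a share of 17.9% higher, where 5.08% of all tested probe sets rose and 4.42% fell. At an unadjusted limma p under 0.05, 34 were higher and 5 lower, against a background of 12.1% and 17%. The log2 change was above 0 for 62 of 78 members (79.5%), against 40% of all tested probe sets. The 3 OVA arrays all lay above the 3 saline arrays for 40 members (51.3%) and all below for 5, where 15.5% and 22% of all tested probe sets did so. The members' median log2 change was 0.21, equal to 1.16-fold, and that of all tested probe sets was -0.08. Single members ranged from -0.99 to 0.98. The members' median standard error was 0.12, against 0.16 for all tested probe sets, and the part of that difference in the counts was not tested.

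The 14 calls depended on which arrays were used. Without OVA replicate 1, saline replicate 2 or saline replicate 3, 0 of the members passed, 1 passed without OVA replicate 2 (Atp5md) and 1 without saline replicate 1 (Atp5d), without OVA replicate 3 it was 6, and without any 1 OVA + agonist array it was 10. The members' median log2 change moved between 0.20 and 0.24 in those same 9 fits.

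Array by array, the median member stood 0.26, 0.19 and 0.22 above the saline mean on the log2 scale in the OVA arrays, while the saline arrays themselves stood at -0.02, -0.02 and 0.06. The 3 OVA arrays thus lay above all 3 saline arrays, at similar heights. Over all tested probe sets the medians of the OVA arrays were -0.10, -0.06 and -0.05 and those of the saline arrays were all 0.00. Which side of 0 the median of all tested probe sets falls on depends on the scaling. Without scaling both OVA minus saline medians lay above 0, at 0.45 for the members and 0.16 for all tested probe sets, and the difference between them was 0.29 there and 0.30 with scaling.

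**Figure D1:**
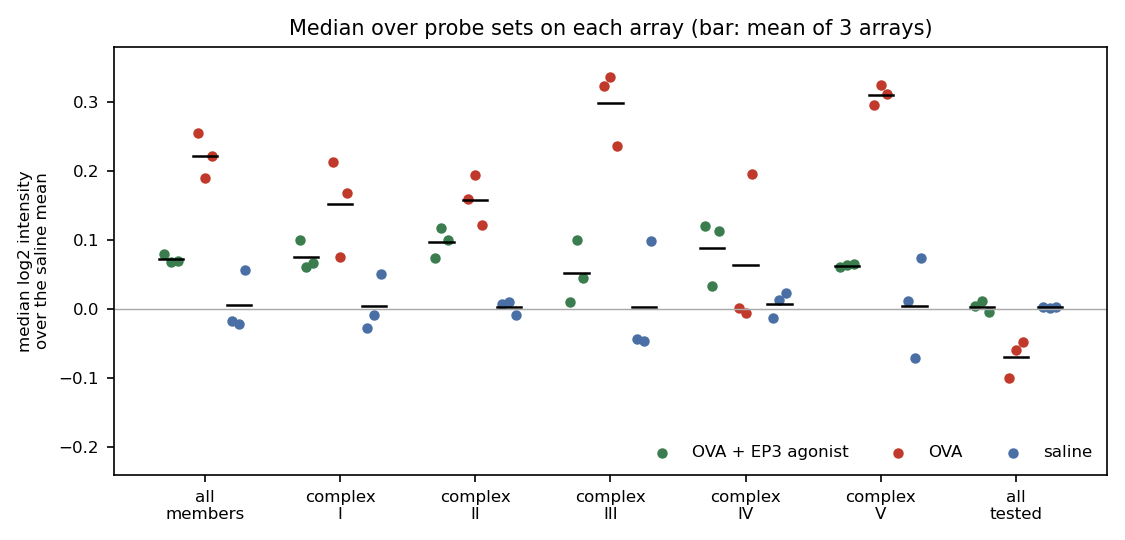
Median log2 intensity over the tested probe sets on each array, relative to each probe set's saline mean, for all members, each complex and all tested probe sets, with 1 point per array (green OVA + EP3 agonist, red OVA, blue saline) and a bar at the mean of 3 arrays. The points of all members lie at 0.07 to 0.08 in OVA + agonist arrays, 0.19 to 0.26 in OVA arrays and -0.02 to 0.06 in saline arrays.

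Each array measures a whole piece of lung, in which fewer cells of a type and less RNA per cell cannot be told apart. Markers of several cell types also changed, those of macrophages mostly upwards and those of heart muscle and endothelium mostly downwards. Of 22 macrophage markers, 20 were on the array and 17 were tested, of which 11 rose and 1 (Lyz2) fell in OVA against saline. Their summed intensity was 16211 to 17225 in OVA lung and 10123 to 10855 in saline lung, and Marco and Fcer1g lay below the detection limit on all arrays. Of 27 heart muscle markers, 25 were on the array and 16 tested, of which 0 rose and 7 fell (0 and 9 at an unadjusted limma p under 0.05), with sums of 3796 to 4612 in OVA lung and 5059 to 6196 in saline lung. Ryr2, Csrp3, Nppb, Ldb3, Actn2, Ckm, Myl2, Myl3 and Sln were below detection throughout. Of 15 tested endothelial markers 0 rose and 9 fell (1 and 10 unadjusted), with sums of 13810 to 15369 in OVA lung and 18990.0 to 19170 in saline lung, and none of those on the array was below detection throughout. Their part in the members' change was not tested.

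By complex, complexes III and V had the largest median log2 changes, 0.32 over 7 and 0.31 over 20 tested probe sets, complex I had 0.16 over 32, complex II 0.14 over 6 and complex IV 0.11 over 13. No test was made between complexes. Complex IV was mixed, with 7 of 13 log2 changes above 0, against 40% of all tested probe sets. Its groups did not overlap for 4 higher and 3 lower probe sets, against 15.5% and 22%. Its medians on the 3 OVA arrays were 0.00, -0.01 and 0.20, against -0.01, 0.01 and 0.02 on the saline arrays. Complex I gave 5 calls, complex II 1, complex III 1, complex IV 2 and complex V 5, all higher in OVA. The 24 tested probe sets whose names carry an Affymetrix suffix, a mark of probes that may also catch related transcripts or that depart from the design rules, gave 5 of the 14 calls and the 54 without one gave 9. The 5 called probe sets with a suffix are those of Atp5d, Atp5e, Atp5md, Ndufa3 and Ndufb5, whose values are thus less certain.

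**Figure D2:**
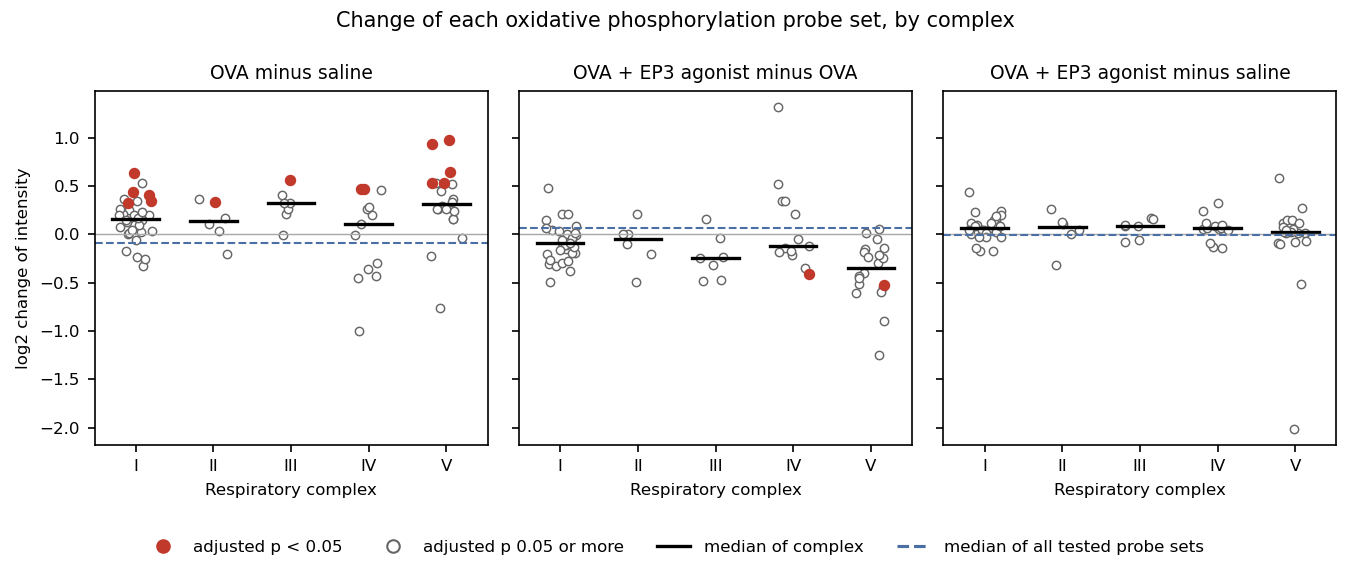
Log2 change of every tested member probe set, 1 point each (filled where adjusted p is under 0.05), by respiratory complex in 1 panel per comparison, with each complex's median as a line and the median of all tested probe sets dashed. The medians of OVA minus saline lie at 0.16, 0.14, 0.32, 0.11 and 0.31 for complexes I to V, and those of OVA + agonist minus OVA at -0.09, -0.05, -0.24, -0.12 and -0.34.

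In complex V, the 5 calls fell on 2 small subunits of the central stalk, 1 subunit of the peripheral stalk and 2 small subunits of the membrane part. Atp5md, a small membrane subunit also known as DAPIT, had intensities of 1078, 848 and 1028 in OVA lung, against 629, 601 and 649 in saline lung. All OVA arrays lay above all saline arrays, and the rise passed the test (log2 change 0.65 ± 0.11 (SE), 1.56-fold, adjusted p = 0.0181). This probe set of Atp5md carries a suffix. Another, which also carries the symbol Gm35857, read 4.89 to 19.2 over the arrays and was not tested. Atp5mpl, another small membrane subunit, read 940.4, 830.0 and 957 in OVA lung, against 629, 595 and 665 in saline lung, again with no overlap (log2 change 0.53 ± 0.12 (SE), 1.44-fold, adjusted p = 0.0348). Atp5l, the g subunit where ATP synthase dimers meet, read 2071, 2089 and 1889.7 in OVA lung, against 1618, 1722 and 1792 in saline lung, and its adjusted limma p was 0.104. The 6 tested probe sets of small membrane subunits cover 5 genes. All 6 log2 changes were above 0, against 40% of all tested probe sets, and 2 passed, with a median of 0.35.

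Atp5e, the epsilon subunit at the foot of the central stalk, read 531, 445 and 454 in OVA lung, against 335, 301 and 351 in saline lung (log2 change 0.53 ± 0.11 (SE), 1.45-fold, adjusted p = 0.0291). Atp5o, the subunit that ties the peripheral stalk to the F1 head, read 532, 359 and 395 in OVA lung, against 259.9, 189.6 and 219 in saline lung (log2 change 0.93 ± 0.22 (SE), 1.91-fold, adjusted p = 0.0426). For both, the lowest OVA array lay above the highest saline array, and for Atp5o the OVA arrays were the more spread. Atp5a1, the alpha subunit of the F1 head, read 1502, 1804 and 1485 in OVA lung, against 1388, 1404 and 1471 in saline lung, and its adjusted limma p was 0.358. The OVA arrays of Atp5a1 lay above the saline arrays by little against their own spread. The membrane ring subunits Atp5g1 and Atp5g2 had log2 changes of -0.22 for Atp5g1 and of 0.26 and -0.04 for the 2 probe sets of Atp5g2, with adjusted limma p-values of 0.659, 0.125 and 0.899.

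Atp5d, the delta subunit of the central stalk, was measured by 4 tested probe sets that disagreed. One of them passed the test and read 152, 103 and 130.2 in OVA lung, against 88.1, 52.5 and 57.9 in saline lung (log2 change 0.98 ± 0.22 (SE), 1.97-fold, adjusted p = 0.0377). Another read 266, 234 and 219 in OVA lung, against 164, 149.7 and 186 in saline lung with no overlap (adjusted limma p 0.0896), and a further one read 187, 184 and 90.8 in OVA lung, against 77.9, 76.2 and 208 in saline lung, with saline replicate 3 among the high arrays. The last read 58.6, 32.7 and 49.3 in OVA lung, against 61.8, 83.1 and 88.7 in saline lung, lower on every OVA array and around the detection limit. The log2 changes of the 4 probe sets were 0.98, 0.52, 0.45 and -0.76. The first 3 carry the suffix for sequences shared within a family, so the value of Atp5d is uncertain.

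In complex I, 4 of the 5 calls fell on accessory subunits, all 4 in the membrane arm. Accessory subunits made up 25 of its 32 tested probe sets. The share called higher was 16% of these and 20% of the 5 core probe sets, against 5.08% of all tested probe sets. Ndufb8 read 531, 458 and 401 in OVA lung, against 307, 289 and 295 in saline lung (log2 change 0.63 ± 0.11 (SE), 1.55-fold, adjusted p = 0.0226). Ndufb5 read 1147, 1044 and 1094 in OVA lung, against 798, 763 and 869 in saline lung (log2 change 0.44 ± 0.09 (SE), 1.35-fold, adjusted p = 0.029). Both had no overlap between groups, with OVA replicate 1 the highest array. Ndufa3 read 908, 795 and 835 in OVA lung, against 614, 639 and 659 in saline lung (log2 change 0.41 ± 0.08 (SE), 1.33-fold, adjusted p = 0.0295). Its other probe set showed no separation, at 95.9, 33.3 and 67.1 in OVA lung, against 57.8, 50.2 and 48.3 in saline lung (adjusted limma p 0.744). Ndufb6 read 701, 736 and 659 in OVA lung, against 558, 539 and 573 in saline lung (log2 change 0.33 ± 0.08 (SE), 1.25-fold, adjusted p = 0.0484), and the next member past the threshold, Ndufb9, had an adjusted limma p of 0.0502. The call of Ndufb6 was lost with any 1 of the 9 arrays left out, with an adjusted limma p of up to 0.139.

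Of the core subunits of complex I, among them those that carry its flavin and iron-sulphur clusters, 1 rose. Ndufv2, which carries an iron-sulphur cluster next to the NADH site, read 611, 539.7 and 557 in OVA lung, against 435, 434 and 472 in saline lung (log2 change 0.35 ± 0.09 (SE), 1.27-fold, adjusted p = 0.0477), and was lost with any 1 array left out. Its other probe set showed no separation, at 81.7, 44.9 and 83.4 in OVA lung, against 69.7, 71.9 and 56.7 in saline lung (log2 change 0.04 ± 0.32, adjusted limma p 0.953). Ndufv1, which binds NADH and the flavin, read 1143, 1199 and 1176 in OVA lung, against 1093, 1161 and 1162 in saline lung, with overlapping groups (adjusted limma p 0.727). Ndufs1 and Ndufs3 had adjusted limma p-values of 0.942 and 0.271. The median log2 change was 0.04 over 5 core probe sets, 0.20 over 25 accessory ones and 0.06 over 4 assembly factors of complexes I and II. Of these 1, 4 and 0 rose, or 20%, 16% and 0%, against 5.08% of all tested probe sets. Ndufa7, an accessory subunit of the peripheral arm, read 1526, 1455 and 1534 in OVA lung, against 1392, 1445 and 1437 in saline lung, close together in both groups and with an adjusted limma p of 0.493.

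In complexes II and III, a membrane anchor and a small subunit rose. Sdhd, one of the anchors that hold succinate dehydrogenase in the membrane, read 763, 697 and 706 in OVA lung, against 588, 531 and 596 in saline lung (log2 change 0.34 ± 0.08 (SE), 1.26-fold, adjusted p = 0.0475), and its call did not survive leaving out any 1 array. Sdhc, its partner anchor, read 999.6, 1033 and 932 in OVA lung, against 979, 1018 and 896 in saline lung, with fully mixed groups (adjusted limma p 0.821). Sdhb, the iron-sulphur subunit, just missed the threshold at 0.0535, with a log2 change of 0.37, while Sdha, the flavoprotein, was lower on every OVA array, with a log2 change of -0.20 and an adjusted limma p of 0.158. Uqcrq, a small subunit of complex III, read 1344, 1144 and 1150.5 in OVA lung, against 735, 826 and 899 in saline lung (log2 change 0.57 ± 0.11 (SE), 1.48-fold, adjusted p = 0.0249). Uqcrh, the hinge protein that helps cytochrome c dock, read 908, 921 and 882 in OVA lung, against 673, 712 and 792 in saline lung, with no overlap but an adjusted limma p of 0.136. Of the 7 tested complex III probe sets, 6 had all OVA arrays above all saline arrays, against 15.5% of all tested probe sets. The exception, Uqcrc2, had a log2 change of -0.00. Of the 7, 1 passed, where 5.08% of all tested probe sets rose.

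In complex IV, the 2 calls fell on ubiquitous subunits, and all 4 tested muscle and testis forms had log2 changes below 0 that did not pass. Cox5b, a zinc-binding subunit on the matrix side, read 1004, 947 and 892 in OVA lung, against 679.8, 695 and 671 in saline lung (log2 change 0.47 ± 0.08 (SE), 1.39-fold, adjusted p = 0.0185). Cox7b, a small membrane subunit, read 603, 588 and 532 in OVA lung, against 387, 411 and 449.6 in saline lung (log2 change 0.47 ± 0.09 (SE), 1.38-fold, adjusted p = 0.0261). Both rose, with each OVA array above each saline array. Cox6c read 2236, 2195 and 2107 in OVA lung, against 1892, 1615 and 1898 in saline lung with no overlap, and its adjusted limma p was 0.126. Cox7a2l was lower on every OVA array, with a log2 change of -0.36 and an adjusted limma p of 0.141.

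**Figure D3:**
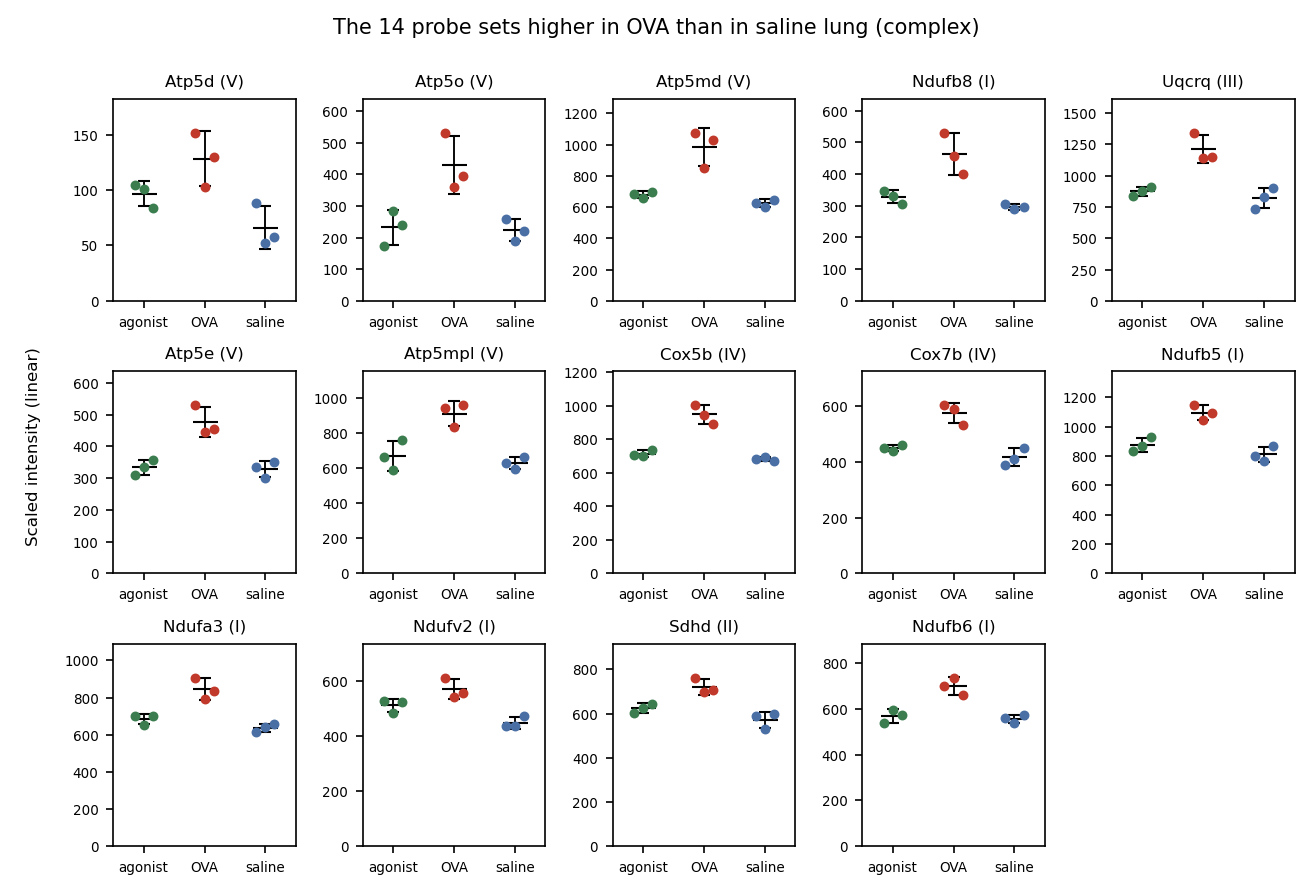
Scaled intensity (linear axis) of the 14 member probe sets that rose in OVA against saline, 1 panel each, with 1 point per array, the group mean as a bar and the SD (n = 3) as whiskers; agonist stands for OVA + EP3 agonist. In each panel the 3 OVA points lie above the 3 saline points, and in 13 of the 14 panels also above the OVA + agonist points. The probe sets were picked for high OVA values, which partly sets both.

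Several complex IV subunits exist as a ubiquitous form and a form of heart and skeletal muscle or of testis. Cox6a2, the heart and skeletal muscle form, read 237, 181 and 173 in OVA + agonist lung, 103, 42.8 and 109.8 in OVA lung, and 133, 128 and 225 in saline lung. It was lowest in the 3 OVA arrays, of which replicate 2 lay below the detection limit, and no OVA array overlapped either other group, but the OVA minus saline log2 change of -0.99 ± 0.39 (SE) had an adjusted limma p of 0.139 and that of OVA + agonist minus OVA, 1.31 ± 0.39, had one of 0.0984. Cox6a1, the ubiquitous form, read 1854, 1813 and 1989 in OVA + agonist lung, 2199.6, 2139 and 2028 in OVA lung, and 1757, 1838 and 1719.6 in saline lung, with an OVA minus saline log2 change of 0.26 ± 0.08 and an adjusted limma p of 0.0781. The 2 forms thus ran in opposite directions, neither past the threshold.

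Cox8b, another muscle form, read 72.8, 75.9 and 99.3 in OVA + agonist lung, 53.8, 69.8 and 71.3 in OVA lung, and 86.2, 84.7 and 89.9 in saline lung and was lower on every OVA array than on any saline array (log2 change -0.43 ± 0.15, adjusted limma p 0.114). Cox6b2, a testis form, read 469, 422 and 332 in OVA + agonist lung, 239.8, 255 and 364 in OVA lung, and 399, 425 and 336 in saline lung, with overlap between OVA and saline (adjusted limma p 0.178). Cox8c, also a testis form, had a log2 change of -0.30 and an adjusted limma p of 0.232. The other probe sets of Cox8b, Cox6b2 and Cox8c lay below the detection limit on all arrays. The tested probe sets of Cox8b and Cox6b2 carry an Affymetrix suffix, so the levels of these forms in lung are uncertain. Cox7a2, the ubiquitous partner of Cox7a1, read 915, 824 and 869 in OVA + agonist lung, 953, 969 and 917 in OVA lung, and 927, 960.4 and 967 in saline lung, with an OVA minus saline log2 change of -0.01. Cox4i1, the ubiquitous form of subunit 4, had log2 changes of 0.46 and 0.20 in its 2 tested probe sets, with overlapping groups, adjusted limma p-values of 0.409 and 0.575 and low intensities. Cox7a1, Cox8a and Cox6b1 lay at or below the detection limit on all arrays. The heart muscle markers ran in the same direction as the muscle forms, with sums of 5084 to 5970 in OVA + agonist lung beside those given for OVA and saline lung, and their part in these values was not tested.

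**Figure D4:**
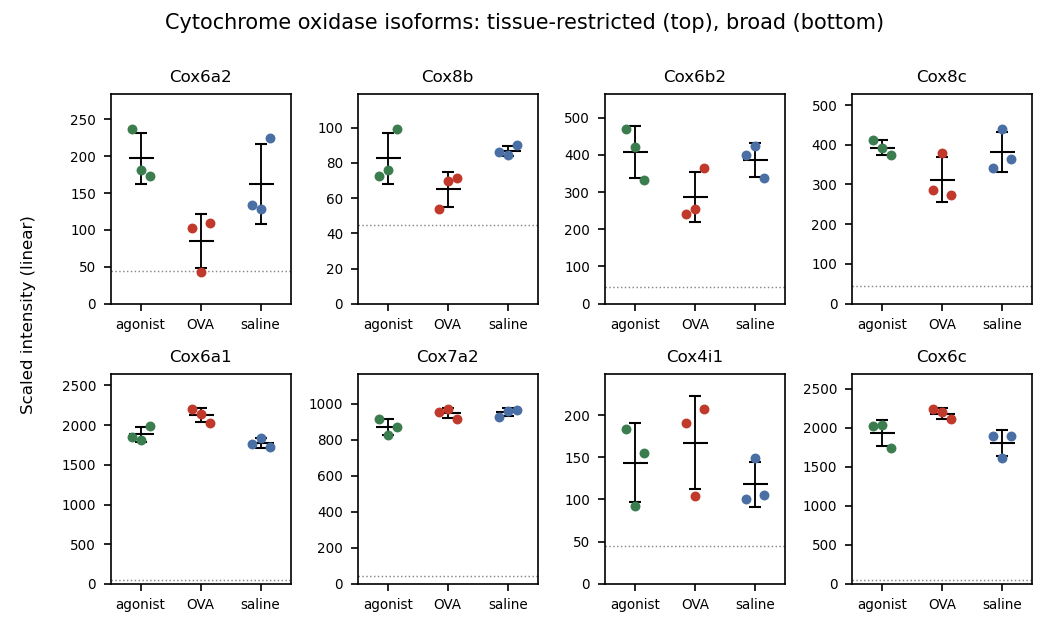
Scaled intensity (linear axis) of complex IV subunits of restricted tissue distribution (top row) and of broad distribution (bottom row), with 1 point per array, the group mean as a bar, the SD (n = 3) as whiskers and the detection limit dotted; agonist stands for OVA + EP3 agonist. Cox6a2 lies at 173 to 237 in OVA + agonist arrays, 42.8 to 109.8 in OVA arrays and 128 to 225 in saline arrays, while Cox6a1 lies highest in OVA arrays.

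The OVA + agonist arrays were set against the OVA arrays to ask what the EP3 agonist changed in challenged lung. This comparison shares the OVA arrays with that of OVA and saline, so a high OVA value raises one change and lowers the other, and the values are given side by side with no correlation. Of the 78 members, 0 rose and 2 fell, where 1.25% of all tested probe sets rose and 1.5% fell. At an unadjusted limma p under 0.05, 4 were higher and 20 lower, against 14.2% and 10.1% of all tested probe sets. The OVA + agonist arrays all lay below the OVA arrays for 29 members and all above for 6, where 12% and 17.8% of all tested probe sets did so. The log2 change was above 0 for 21 of 78 (26.9%, against 58.2%), and its median was -0.15 in the members and 0.06 in all tested probe sets. The median member stood 0.08, 0.07 and 0.07 above the saline mean in the OVA + agonist arrays, below each of the OVA arrays.

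Atp5md and Cox5b fell with the agonist. The probe set of Atp5md carries an Affymetrix suffix and that of Cox5b carries none. Atp5md read 684, 659 and 699.5 in OVA + agonist lung, against 1078, 848 and 1028 in OVA lung (log2 change -0.53 ± 0.11 (SE), 1.44-fold, adjusted p = 0.0481, lower in OVA + agonist). Cox5b read 703, 698 and 738 in OVA + agonist lung, against 1004, 947 and 892 in OVA lung (log2 change -0.41 ± 0.08 (SE), 1.33-fold, adjusted p = 0.0444, lower in OVA + agonist). For both, the OVA + agonist arrays lay closely together and under every OVA array. Each call was lost in 8 of the 9 fits that left out 1 array and held without OVA + agonist replicate 3, and the adjusted limma p reached 0.167 for Atp5md and 0.155 for Cox5b.

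The other members that had risen in OVA gave lower OVA + agonist values without passing. Uqcrq read 837, 876 and 909 in OVA + agonist lung, against 1344, 1144 and 1150.5 in OVA lung (log2 change -0.47 ± 0.11 (SE), 1.38-fold, adjusted p = 0.0619). Ndufb8 read 346, 332 and 307 in OVA + agonist lung, against 531, 458 and 401 in OVA lung (log2 change -0.49 ± 0.11 (SE), 1.4-fold, adjusted p = 0.0644). Atp5o read 174, 284 and 238 in OVA + agonist lung, against 532, 359 and 395 in OVA lung (log2 change -0.89 ± 0.22 (SE), 1.86-fold, adjusted p = 0.0719). In each of these the groups did not overlap.

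Atp5e read 309.5, 336 and 356 in OVA + agonist lung, against 531, 445 and 454 in OVA lung, with an adjusted limma p of 0.0544. Atp5mpl read 661, 586 and 759 in OVA + agonist lung, against 940.4, 830.0 and 957 in OVA lung (adjusted limma p 0.0776) and Cox7b 449.9, 439 and 458 in OVA + agonist lung, against 603, 588 and 532 in OVA lung (adjusted limma p 0.075). Over the 14 members, the log2 change ran from -0.89 to -0.16. The groups did not overlap for 13, with OVA + agonist lower, against 29 of 78 members and 12% of all tested probe sets. The exception was the Atp5d probe set, at 105, 101 and 84.2 in OVA + agonist lung, against 152, 103 and 130.2 in OVA lung. The 14 were picked for high values on these same OVA arrays, so lower OVA + agonist values were partly set by that choice. By complex, the median log2 changes of OVA + agonist minus OVA were -0.09 for I, -0.05 for II, -0.24 for III, -0.12 for IV and -0.34 for V. The 8 tested F1 head and central stalk probe sets cover only 4 genes and include all those of Atp5d. Of these 8, 0 had a log2 change above 0, against 58.2% of all tested probe sets.

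Markers moved in this comparison as well. Of the 17 macrophage markers 1 rose and 3 fell, with sums of 11541 to 14325 in OVA + agonist lung, against 16211 to 17225 in OVA lung. Of the 16 heart muscle markers 2 rose and 0 fell (10 and 0 unadjusted), and of the 15 endothelial markers 3 rose and 0 fell (9 and 0 unadjusted), with endothelial sums of 18275 to 19416 in OVA + agonist lung. Of 6 tested adipose markers 3 rose (Car3, 3.72-fold, Adipoq, 2.16-fold, and Lpl, 1.33-fold, with adjusted limma p-values of 0.0158, 0.0356 and 0.0444) and 0 fell (4 and 0 unadjusted), with sums of 1746 to 2038 in OVA + agonist lung, against 1164 to 1287 in OVA lung. Retn, Elovl3, Slc2a4, Pparg and Cidea lay below detection throughout. Their part in the members' values was not tested.

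Set against saline, OVA + agonist lung showed no called member. In limma, 0 of 78 rose and 0 fell, where 0.0379% of all tested probe sets rose and 0.0379% fell, and 3 were higher and 0 lower at an unadjusted p under 0.05, against 3.62% and 4.09%. The lowest adjusted limma p among the members was 0.575. The groups did not overlap for 10 higher and 2 lower members, where 6.65% and 7.03% of all tested probe sets did so. The log2 change was above 0 for 60 of 78 (76.9%, against 49.2%), with a median of 0.06 in the members and -0.00 in all tested probe sets. For the 14 members that rose in OVA, the log2 change of OVA + agonist minus saline lay between 0.02 and 0.58, with adjusted limma p-values of 0.604 to 0.978. Uqcrq, for example, read 837, 876 and 909 in OVA + agonist lung, against 735, 826 and 899 in saline lung, with overlapping groups. With so few arrays a group, a p above the threshold does not show that the levels were alike.

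Genes that work beside the respiratory chain did not share 1 pattern. Of 20 tested electron carriers and assembly factors, 1 rose and 1 fell in OVA against saline, with a median log2 change of 0.06. Coq7, which acts late in ubiquinone synthesis, read 63.6, 55.7 and 61.6 in OVA + agonist lung, 114, 94.1 and 99.4 in OVA lung, and 61.8, 58.1 and 62.1 in saline lung. It was higher in OVA than in saline (log2 change 0.75 ± 0.10 (SE), 1.69-fold, adjusted p = 0.0112) and lower in OVA + agonist than in OVA (log2 change -0.76 ± 0.10 (SE), 1.7-fold, adjusted p = 0.0274). Surf1, an assembly factor of complex IV, read 177, 182 and 157 in OVA + agonist lung, 149, 119.8 and 152 in OVA lung, and 231, 218 and 194 in saline lung, and fell in OVA against saline (log2 change -0.61 ± 0.13 (SE), 1.53-fold, adjusted p = 0.0291). Slc25a3 had the largest log2 change, 2.21, with an adjusted limma p of 0.157. It read 54.5, 49.5 and 69.7 in OVA lung, against 61.4, 9.88 and -10.9 in saline lung, with overlapping groups. Cycs, the cytochrome c that carries electrons from complex III to complex IV, just missed the threshold, with a log2 change of 0.33 and an adjusted limma p of 0.0519.

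Of 18 tested enzymes of the citric acid cycle and its feeders, which supply the chain with electrons, 0 rose and 0 fell in limma, with 0 past an unadjusted p under 0.05 in either direction and a median log2 change of -0.03. The largest changes were those of Idh3a (-0.42), Pcx (-0.40) and Got2 (-0.30), with adjusted limma p-values of 0.556, 0.439 and 0.473. Of 11 tested regulators of mitochondrial genes, 0 rose and 2 fell, with a median of -0.15. Ppara, a nuclear receptor that drives fatty acid oxidation, read 115, 98.2 and 89.5 in OVA + agonist lung, 77.8, 56.7 and 70.1 in OVA lung, and 120.3, 101 and 94.2 in saline lung (log2 change -0.63 ± 0.16 (SE), 1.54-fold, adjusted p = 0.0492, lower in OVA). Polg, the polymerase that copies mitochondrial DNA, read 39.5, 43.3 and 50.3 in OVA + agonist lung, 30.0, 17.1 and 22.5 in OVA lung, and 60.1, 51.0 and 58.7 in saline lung. All OVA arrays of Polg lay below the detection limit and all saline arrays above it, which makes it at least 1.26-fold lower in OVA (adjusted limma p 0.015). Pprc1, a coactivator of the PGC-1 family, was at least 1.15-fold lower in OVA + agonist, where all arrays lay below the limit, than in OVA, with an adjusted limma p of 0.0448. Ppargc1a and Tfam, known drivers of mitochondrial gene expression, lay below detection on all arrays. Of 6 tested uncoupling and antioxidant genes of mitochondria, 0 rose and 0 fell in limma (2 and 1 at an unadjusted p under 0.05), with a median of 0.17. The largest changes among them were those of Ucp3 (-0.35), Txnrd2 (-0.33) and Prdx3 (0.28), with adjusted limma p-values of 0.189, 0.108 and 0.0856.

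**Figure D5:**
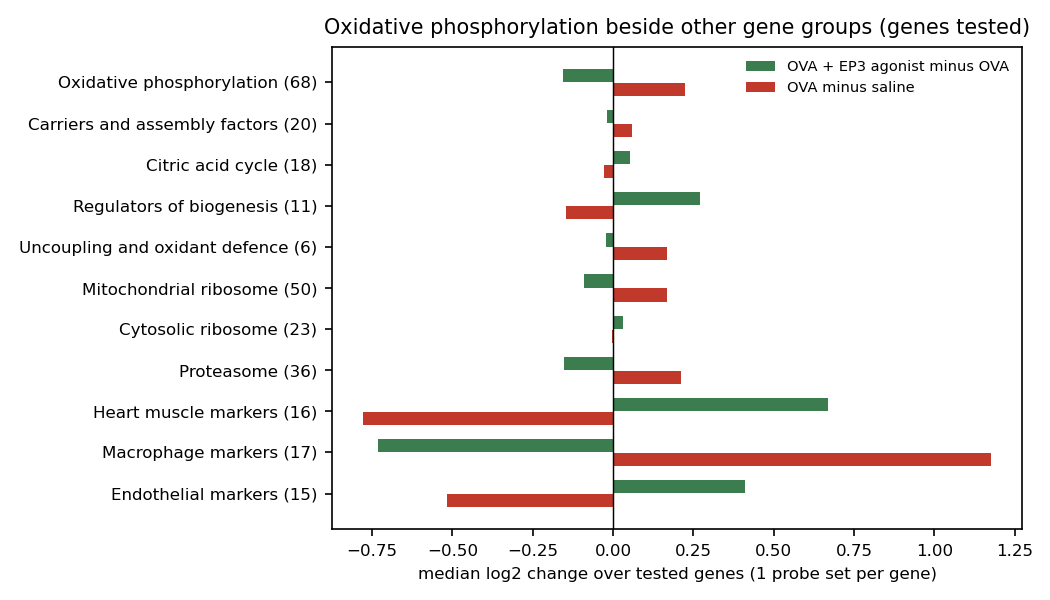
Median log2 change over the tested genes of each group, with 1 probe set per gene and the number of genes in brackets, for OVA + EP3 agonist minus OVA and OVA minus saline. The bars of the oxidative phosphorylation genes reach -0.15 and 0.22, those of the citric acid cycle 0.05 and -0.03, and those of macrophage markers -0.73 and 1.18; the ribosome and proteasome groups were added after their values were seen.

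The start regions of the members were read for motifs known from respiratory genes, since so many members moved in the same direction. RefSeq (GRCm38.p6) gave windows of 300 bases, from 250 before to 50 after the start, for 60 of the 73 genes (65 windows) and for 27025 genes in all (32851 windows). Searched on both strands were GCATGCGC for NRF1, CCGGAAG for GABP, AAGATGGC for YY1 and TCAAGGTCA for the oestrogen-related receptors. These are binding motifs of factors long linked to mitochondrial genes. NRF1 letters stood in 15.4% of the member windows, against 2.71% of all windows. GABP letters stood in 27.7%, against 8.86%, and YY1 letters in 12.3%, against 2.75%. Those of the oestrogen-related receptors stood in 1.54%, only 1 window of the 65, against 0.423%. The member windows were richer in G and C, with a median of 59%, against 52.7% in all windows. For the 14 genes that rose in OVA, 13 windows of 12 genes were found, of which 0 held the NRF1 letters, 4 those of GABP, 2 those of YY1 and 1 those of the oestrogen-related receptors. A match is a description of letters, and a missing one says only that these letters are not in the window.

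The 160 bases before the start are shown for 3 genes that rose in OVA, one of them the subunit that also fell with the agonist and has no match (Cox5b), and for 2 that did not pass but hold NRF1 letters (Cox6a1 and Atp5g2). Capitals mark the matches, which are GABP in Atp5e and Sdhd, NRF1 at the first bases and GABP near the start in Cox6a1, and 2 overlapping NRF1 matches, 1 on each strand, in Atp5g2. All read 5′ to 3′ on the gene's strand. The regions are chr2:174464102-174464261, minus strand, for Atp5e, chr9:50603850-50604009, minus strand, for Sdhd, chr1:36691327-36691486, plus strand, for Cox5b, chr5:115348959-115349118, minus strand, for Cox6a1 and chr15:102671048-102671207, minus strand, for Atp5g2.
Atp5e: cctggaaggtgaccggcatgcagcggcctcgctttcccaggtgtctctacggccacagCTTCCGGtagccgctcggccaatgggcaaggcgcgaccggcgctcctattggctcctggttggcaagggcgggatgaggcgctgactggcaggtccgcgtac
Sdhd: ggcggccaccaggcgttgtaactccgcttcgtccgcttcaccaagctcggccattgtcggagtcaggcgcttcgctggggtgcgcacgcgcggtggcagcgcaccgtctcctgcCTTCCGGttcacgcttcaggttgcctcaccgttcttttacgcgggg
Cox5b: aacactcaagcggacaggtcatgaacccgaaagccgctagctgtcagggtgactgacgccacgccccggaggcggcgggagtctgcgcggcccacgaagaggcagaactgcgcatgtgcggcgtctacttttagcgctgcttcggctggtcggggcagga
Cox6a1: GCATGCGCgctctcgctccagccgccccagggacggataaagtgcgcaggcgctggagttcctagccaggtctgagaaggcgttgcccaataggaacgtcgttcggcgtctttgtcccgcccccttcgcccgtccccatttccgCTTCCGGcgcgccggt
Atp5g2: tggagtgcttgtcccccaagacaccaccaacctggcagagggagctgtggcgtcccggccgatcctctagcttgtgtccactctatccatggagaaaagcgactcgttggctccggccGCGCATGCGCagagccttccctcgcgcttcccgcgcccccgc
Over the whole 300-base window, the 5 genes held no further kind of motif but for Sdhd. Its window also held the letters of the oestrogen-related receptors, not within the printed bases. Set beside the values, Atp5e and Sdhd, with GABP letters, had OVA minus saline log2 changes of 0.53 and 0.34, Cox5b, with none of the 4 motifs in its window, had 0.47, and Cox6a1, with both NRF1 and GABP letters, had 0.26.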

How the data were processed

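Lung RNA of 9 mouse samples was hybridised to Affymetrix arrays, 1 array a sample. The deposited values are linear intensities, 1 per probe set and array, with 2043 to 2332 values below 0 per array, and how the authors summarised them and what they subtracted is unstated in the sources at hand. The members and gene lists were chosen with earlier results of these data known.

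Arrays were scaled to equal 2% trimmed means over all 12488 probe sets (138.7 to 241.2 before scaling), and 66 controls were then left out. Values under 3.10, the 20th percentile, were raised to it before taking log2. Testing required at least 3 of 9 arrays above 44.7, the 40th percentile. limma 3.58.1 (lmFit and eBayes, R 4.3.3) was fitted to all 9 arrays (residual degrees of freedom 6, prior 1.69), and two-sided p-values were adjusted by Benjamini-Hochberg over 7920 probe sets. The precision is limited by 3 arrays a group. The procedure was also run on simulated data with the means and spread of these arrays and independent noise. The outcome of that run is not reported here, so it does not bear on the calls.

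Gene names come from the array's probe table, in which 10833 probe sets carry 1 symbol, 396 several and 1193 none. All 73 member genes were found in RefSeq (GRCm38.p6) under the same symbol. Named with values on every array were up to 10 called members per comparison and direction, the 2 brightest members of each complex, 5 isoform pairs and genes whose probe sets disagree by over 0.5 in opposite directions. Up to 3 genes of each other list were named. Genes named outside this rule, such as Ndufa3, Ndufb6, Ndufv2 and Cycs, were added after their values were seen. So were the roles of the complex I and complex V subunits and the choice of promoters. One probe set per gene, the brightest, was used for the other lists. The alternatives were other scalings, floors, filters and models, a fit of only 6 arrays, a replicate block, the brightest probe set per gene, an adjusted p of 0.1 and each array left out in turn.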

Additional observations from a re-analysis of the deposited data

How the results depend on the processing

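The count of members called in OVA against saline (14) was 15 to 19, all but 1 of them higher, under quantile normalization, equal medians, other floors, other filters, an intensity trend with a robust prior and array weights, 14 with 1 probe set per gene, 10 with only the 6 arrays compared and 21 at an adjusted p of 0.1. It was 0 with no scaling and 0 with a replicate block, and 0 to 10 with 1 array left out. In OVA + agonist against OVA the count (2) was 15 at an adjusted p of 0.1, 11 with the trend, 9 with the filter at the 60th percentile, 5 with array weights, 1 with no filter, 0 with no scaling, 0 with only the 6 arrays, 0 with the block, and 0 to 4 with 1 array left out. The causes were not tested. With OVA + agonist against saline it was 0 throughout.

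The members' median log2 changes (0.21, -0.15 and 0.06, in the same order of comparisons) were 0.45, -0.55 and -0.095 with no scaling, which moved the median of all tested probe sets to 0.16, -0.33 and -0.16. Relative to that median they were 0.29, -0.21 and 0.06. The first was 0.16 with no filter and 0.26 with the 60th percentile filter, and the second -0.11 with no filter. With 1 array left out they ran from 0.20 to 0.24, -0.18 to -0.13 and 0.058 to 0.093.

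The same-numbered arrays deviated with correlations of 0.17, 0.11 and 0.04 in OVA and saline, -0.07, 0.01 and -0.05 in OVA + agonist and OVA, and -0.03, 0.08 and -0.14 in OVA + agonist and saline. Arrays of different number gave -0.15 to 0.04, -0.02 to 0.08 and -0.14 to 0.15 in the same order. The labels do not say what a shared number stands for, and whether it marks a batch was not tested. The block is not used elsewhere. Of the 78 tested members, 8 were not above the detection limit on all 9 arrays, which limits their values.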

Other observations

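Gene groups added after the values were seen are given here as values. Of 36 tested proteasome genes, 3 rose and 0 fell in OVA against saline (14 and 0 at an unadjusted limma p under 0.05), with a median log2 change of 0.21. Of 50 tested mitochondrial ribosome genes 0 rose and 0 fell in limma (11 and 0 unadjusted), with a median of 0.17. Of 23 tested cytosolic ribosome genes 0 rose and 0 fell (4 and 0 unadjusted), with a median of -0.00. In the same order, 31, 38 and 11 genes had a log2 change above 0. Of the members with 1 probe set per gene, 54 of 68 did so, and 40% of all tested probe sets. The medians of OVA + agonist minus OVA were -0.15, -0.09 and 0.03, beside -0.15 for the members.

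Among other cell type markers in OVA against saline, 1 of 1 tested eosinophil marker (Alox15) rose, 1 of 7 lymphocyte markers rose and 0 fell, 4 of 9 smooth muscle markers rose and 0 fell, 3 of 11 epithelial markers rose and 3 fell, 2 of 6 adipose markers fell and 0 rose, and 2 of 4 red cell markers fell and 0 rose. In OVA + agonist against OVA, the eosinophil marker and 1 smooth muscle marker fell, 1 red cell and 1 epithelial marker rose, and 0 lymphocyte markers rose or fell in limma (0 and 2 unadjusted). A further 10 probe sets match the family by pattern but carry several symbols. Of the 9 tested, 3 rose and 0 fell in OVA against saline, with a median log2 change of 0.22.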
